A study of Mus musculus with 40 samples.

Results

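Cerebellar mRNA of SCA6 84Q/+ mice was compared with that of wild-type (WT) mice at 3 months, the youngest age of the series. The comparison used the 10 libraries whose labels give this age, 5 per genotype, of 40 libraries in all. It covered every gene with a CPM (count scaled to library size) of 1 or more in all libraries of either genotype, which left 13104 of the 21967 genes of the deposited table. SCA6 84Q/+ mice carry a hyperexpanded CAG repeat knocked into 1 endogenous Cacna1a allele, are labelled heterozygous, and were recovered from frozen embryos by a repository. WT mice carry no knock-in allele, and neither genotype was treated. Each library was made from the polyadenylated RNA of a separate sample of whole cerebellum. In such bulk RNA, fewer cells of a type and less RNA per cell cannot be told apart. The series follows both genotypes through 6, 12 and 19 months, and mice of this line are known to develop motor impairment late in life.

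Cacna1a encodes the pore of the P/Q-type calcium channel Cav2.1, which triggers transmitter release and is abundant in Purkinje neurons, the output neurons of the cerebellar cortex. The repeat lengthens a glutamine tract of the channel. Expanded glutamine tracts can misfold, and a cell that senses misfolded proteins in the endoplasmic reticulum (ER) can answer with the unfolded protein response (UPR), in which IRE1, PERK and ATF6 signal to raise chaperones such as Hspa5. The question at 3 months is which transcripts differ long before motor signs.

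Libraries held 51121453 to 77183667 counts in WT and 56357193 to 73537900 in SCA6 84Q/+, so a gene at 1 CPM rested on more than 50 counts per library. Y-linked transcripts were found in 2 of 5 WT libraries (replicates 2 and 5) and in 4 of 5 SCA6 libraries (replicates 2 to 5), so sex was not balanced. SCA6 replicate 1 carried traces of them, 0.39 CPM on average over 4 Y-linked genes, against at most 0.0040 CPM in the WT libraries without them and 80.4 to 94.0 CPM in the libraries with them. The ID number in the labels was 34 for all 5 SCA6 libraries and for 2 WT libraries, and 35 for the other 3 WT libraries. Markers of Purkinje cells were present as the label of the tissue says, with all 37 listed genes tested and sums of 16370 to 19020 CPM in WT and of 17050 to 17320 CPM in SCA6 84Q/+. The summed level of 26 brainstem and midbrain markers, of which 8 stayed under 1 CPM in every library, ranged from 308 to 754 CPM in WT and from 312 to 811 CPM in SCA6 84Q/+. WT replicate 3 held little choroid plexus RNA, with 825 CPM of its defining transcript Ttr against 2099 to 3301 CPM in the other 9 libraries.

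The libraries labelled SCA6 3 months replicates 2 and 3 stood apart from the other 3 SCA6 libraries in genes near Cacna1a on chromosome 8. This was read from genes chosen without any 3-month library. In the 30 libraries of the later ages, with age as a factor, 14 of 13365 genes (0.105%) differed between genotypes by edgeR, and 11 of them lie on chromosome 8. A chromosome 8 score was formed from these 11 genes as the mean of each library's distance from the WT mean, divided by the later-age difference, so that 0 is the WT mean and 1 the later-age SCA6 level. It was -0.14 to 0.18 in the 5 WT libraries and 0.82, 0.99 and 0.91 in SCA6 replicates 1, 4 and 5. In the libraries labelled SCA6 replicates 2 and 3 it was 0.24 and 0.11, next to or inside the WT range. Cacna1a itself does not check the label, since a knock-in allele is still transcribed. Its level was 417, 322, 388, 373 and 332 CPM in WT replicates 1 to 5 and 380, 374, 348, 339 and 314 CPM in SCA6 replicates 1 to 5. These ranges overlapped, and the log2 fold change was -0.08 (adjusted p = 0.64 from edgeR, with a standard error of 0.072). It was -0.17 with the GC offset described below (unadjusted p = 0.033, adjusted p = 0.60 from edgeR) and 0.0082 with Y-linked transcripts as a factor, beside -0.28, -0.23 and -0.22 in fits of 6, 12 and 19 months alone (standard errors of 0.070, 0.069 and 0.061). Results are therefore given with all 10 libraries and, where they move, without the libraries labelled SCA6 replicates 2 and 3. Since these were set apart by their levels of chromosome 8 genes, values of chromosome 8 genes without them are conditioned on the outcome. They are a description and no test.

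Throughout, a gene was called where edgeR's quasi-likelihood test gave a Benjamini-Hochberg adjusted p of 0.05 or less over all genes tested and a log2 fold change of at least 0.3 in size. A single gene of 13104 (0.00763%) was called with all libraries. It was Fcho1, which encodes an adaptor that starts clathrin-coated pits and lies 12.7 Mb from Cacna1a (mm10 chr8:71708387-71725716). Fcho1 was at 21.1, 22.2, 20.9, 21.4 and 22.4 CPM in WT replicates 1 to 5. It was at 28.9, 26.5, 29.7, 30.4 and 27.96 CPM in SCA6 replicates 1 to 5. All SCA6 libraries lay above all WT libraries, those labelled replicates 2 and 3 included. The log2 fold change was 0.39 (adjusted p = 0.018 from edgeR, with a standard error of 0.045). The call was lost in 7 of the 10 fits that left out 1 library, those without WT replicate 1, 2, 3 or 4 or without SCA6 replicate 1, 3 or 4 (adjusted p = 0.056 to 0.12 from edgeR), while the log2 fold change stayed between 0.36 and 0.42 in all 10. With a correction for GC content it was 0.28 (adjusted p = 0.26 from edgeR). In fits of each later age on its own, the log2 fold change of Fcho1 was 0.09 at 6 months (standard error 0.095), 0.33 at 12 months and 0.33 at 19 months.

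Without the libraries labelled SCA6 replicates 2 and 3, 6 of 13104 genes (0.0458%) were called. Comp, Fcho1 and Zfp868 were higher in SCA6 84Q/+. Mri1, Scoc and the transcript RP23-114B10.4 were lower. The 5 of them with a position in the annotation lie on chromosome 8, the chromosome whose levels decided which libraries were left out, and Comp, Mri1 and Zfp868 are among the 11 genes of the score. Comp encodes a cartilage matrix protein (chr8:70373558-70382066). Comp was at 2.73 to 3.75 CPM in WT, at 11.4, 9.69 and 7.67 CPM in SCA6 replicates 1, 4 and 5, and at 3.62 and 3.67 CPM in the libraries labelled replicates 2 and 3. The last 2 values lay inside the WT range and the other 3 far above it. The log2 fold change was 1.61 without these libraries and 1.19 with them (adjusted p = 0.24 from edgeR).

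Mri1, an enzyme of methionine salvage, lies 0.14 Mb from Cacna1a (chr8:84249906-84257326). Its level was 22.03 to 25.3 CPM in WT and 17.9, 16.9 and 17.4 CPM in SCA6 replicates 1, 4 and 5, but 27.4 and 24.3 CPM in the libraries labelled replicates 2 and 3. The log2 fold change was -0.46 without these libraries. With them it was -0.21 (adjusted p = 0.46 from edgeR). Zfp868, a zinc finger gene, was at 31.2 to 33.9 CPM in WT, at 39.8, 40.2 and 40.1 CPM in SCA6 replicates 1, 4 and 5, and at 32.1 and 27.6 CPM in those labelled 2 and 3. Without these, its log2 fold change was 0.30, and with them 0.14.

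Scoc, a coiled-coil protein of the Golgi that takes part in autophagy, lies 0.96 Mb from Cacna1a and behaved less sharply. It was at 159 to 177 CPM in WT, at 118, 127 and 137 CPM in SCA6 replicates 1, 4 and 5 and at 153 and 152 CPM in the libraries labelled 2 and 3, so all SCA6 libraries lay below all WT libraries. The log2 fold change of Scoc was -0.42 without replicates 2 and 3 and -0.32 with all libraries (adjusted p = 0.18 from edgeR). RP23-114B10.4 was at 56.6 to 60.6 CPM in WT, at 44.3, 42.6 and 41.1 CPM in SCA6 replicates 1, 4 and 5 and at 59.8 and 53.2 CPM in those labelled 2 and 3. With a correction for GC content and without replicates 2 and 3, Comp, Mri1, RP23-114B10.4 and Scoc were called, 4 of 13104 genes (0.0305%).

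**Figure D1:**
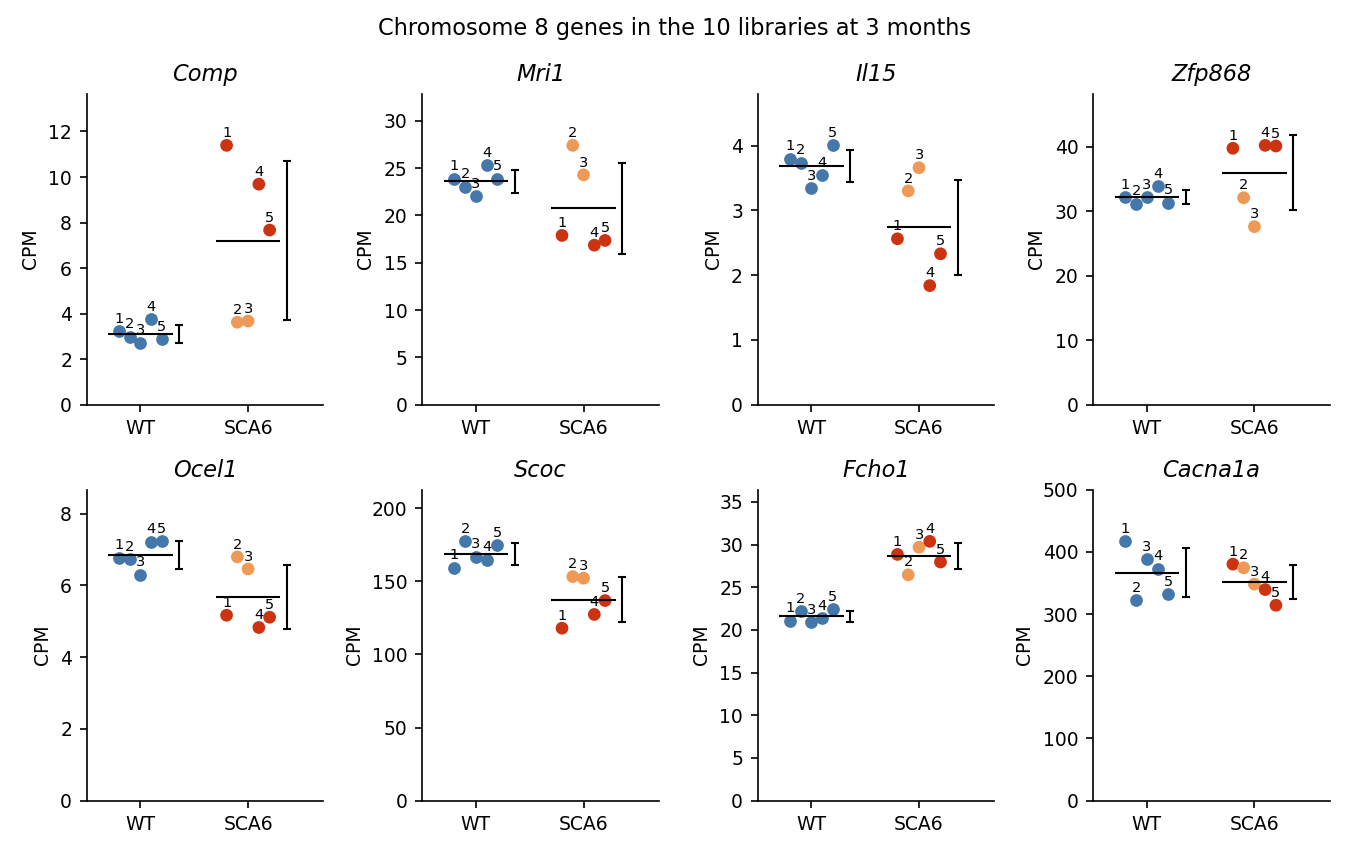
Levels of 8 chromosome 8 genes (CPM, y axes from 0) in each library, numbered by replicate, with the group mean as a line and the SD beside it (n = 5). Blue points are WT, red points SCA6 replicates 1, 4 and 5, and orange points the libraries labelled SCA6 replicates 2 and 3, which lie near the WT points for Comp (3.62 and 3.67 CPM) and Mri1 but not for Fcho1 (26.5 and 29.7 CPM).

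The 11 chromosome 8 genes chosen at the later ages were then followed at 3 months. No 3-month library had served to choose the genes. With all 10 libraries, 10 of 11 had the later sign, 8 had an unadjusted p under 0.05 and none was called by edgeR. The median ratio of the 3-month to the later log2 fold change was 0.67. The same counts without the libraries labelled replicates 2 and 3 (11 with the later sign, 9 with an unadjusted p under 0.05, 3 called) and the ratio of 0.90 were bound to be larger, since those libraries were set apart by low values of this very ratio. Il15, a cytokine that sustains lymphocytes, was at 3.34 to 4.00 CPM in WT, at 2.56, 1.84 and 2.33 CPM in SCA6 replicates 1, 4 and 5 and at 3.30 and 3.66 CPM in those labelled 2 and 3. Its log2 fold change was -0.45 with all libraries (adjusted p = 0.30 from edgeR) and -0.73 without those labelled 2 and 3, beside -0.65 at the later ages. Ocel1 was at 6.30 to 7.23 CPM in WT, at 5.17, 4.83 and 5.11 CPM in SCA6 replicates 1, 4 and 5 and at 6.80 and 6.46 CPM in those labelled 2 and 3. Zfp963, another zinc finger gene, was at 2.73 to 3.29 CPM in WT, at 4.07, 4.32 and 4.61 CPM in SCA6 replicates 1, 4 and 5 and at 3.21 and 2.84 CPM in those labelled 2 and 3. The transporter Abcc12 overlapped between genotypes, with 12.7 to 17.6 CPM in WT and at 11.3 to 16.5 CPM in SCA6 84Q/+. Usb1, a nuclease that trims U6 RNA, did not separate the libraries in this way, with 9.32, 9.07, 9.13, 7.86 and 8.32 CPM in SCA6 replicates 1 to 5 against 5.72 to 7.94 CPM in WT. The motor adaptor Hook2 differed by 0.06 on the log2 scale with all libraries and by -0.13 without the 2, beside -0.32 at the later ages. The remaining members, the chromatin protein Hmgb2 and the matrix protease Mmp2, had log2 fold changes of -0.25 and 0.52 with all libraries. Without the 2 libraries these were -0.34 and 0.46.

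Within 20 Mb of Cacna1a, 258 genes were tested, a window set after the values were seen. Of these, 75 (29.1%) had an unadjusted p under 0.05 with all 10 libraries, against 31 of 383 (8.09%) on the rest of chromosome 8 and 1552 of 11811 (13.1%) on other chromosomes. Without replicates 2 and 3, a choice made on chromosome 8 levels, the shares were 52 of 258 (20.2%), 17 of 383 (4.44%) and 588 of 11811 (4.98%). With the GC correction as well the shares were 19.4%, 3.13% and 3.51%. Genes in this window differed in both directions. The knock-in allele and the chromosome segment around it cannot be told apart by this design.

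**Figure D2:**
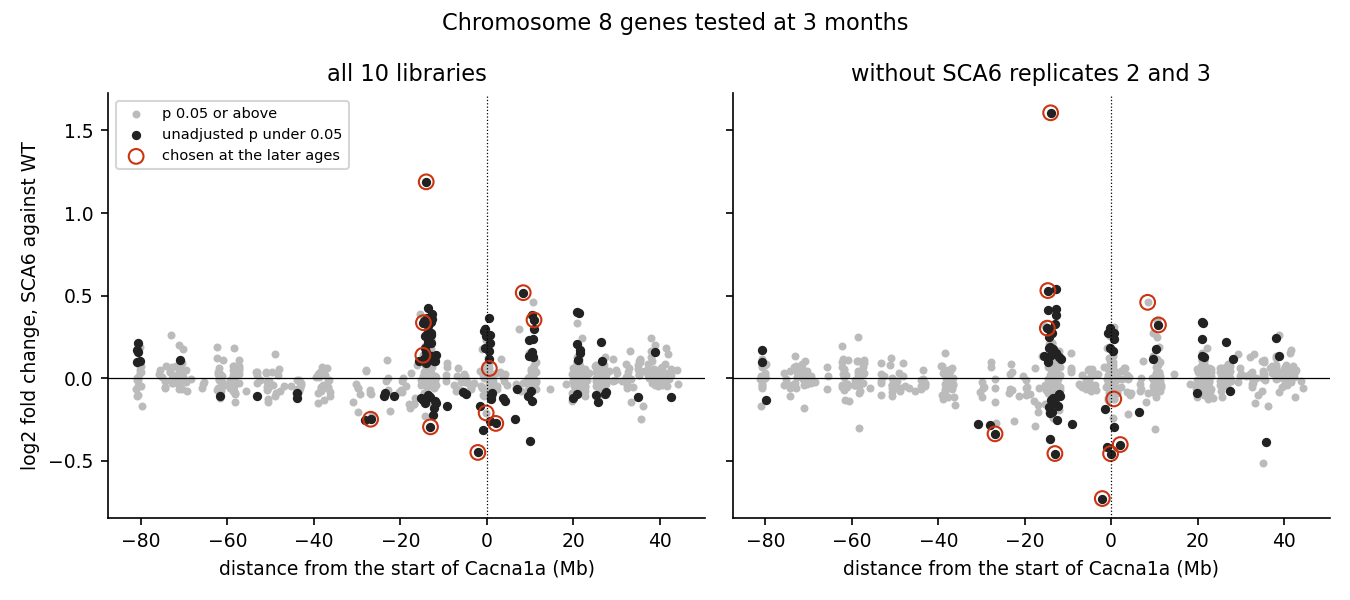
Log2 fold change (y axis) of each tested chromosome 8 gene against the distance of its start from that of Cacna1a in Mb (x axis), with all 10 libraries (left) and without those labelled SCA6 replicates 2 and 3 (right). Black points have an unadjusted p under 0.05 (52 of 258 within 20 Mb on the right), and red rings mark the 11 genes chosen at the later ages, with Comp highest at 1.19 and 1.61.

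Over all tested genes, chromosome 8 included, most differences were small and they went in part with base composition. Log2 fold changes were higher in genes with a higher GC content of the longest transcript, with a Spearman's rho of 0.54 across 12452 genes with a known value, which share the same libraries. The median log2 fold change was -0.07 for the 729 genes at or under 40% GC and 0.13 for the 542 genes over 60% GC. The slope of log2 CPM on GC content, per 10 points of GC and relative to the mean of all libraries, was -0.059 to -0.024 in WT. It was 0.071, 0.060 and 0.12 in SCA6 replicates 1, 2 and 3, and -0.0074 and -0.037 in SCA6 replicates 4 and 5. Slopes above 0 were thus seen in 3 SCA6 libraries, among them those labelled 2 and 3. A per-library GC trend taken out as an offset left a rho of -0.015 and no call by edgeR, with 1042 genes at an unadjusted p under 0.05 in place of 1728.

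**Figure D3:**
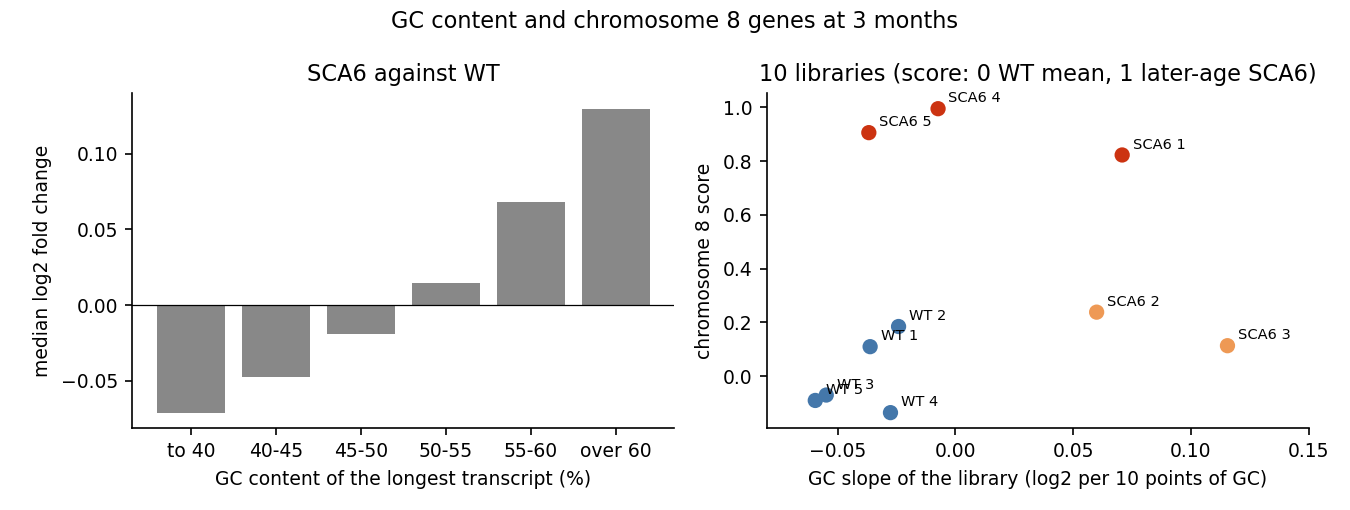
Left, median log2 fold change of SCA6 84Q/+ against WT (y axis) in 6 classes of GC content (x axis, percent), from -0.07 to 0.13. Right, the chromosome 8 score of each library (y axis, 0 is the WT mean and 1 the later-age SCA6 level) against its GC slope (x axis, log2 per 10 points of GC), where the libraries labelled SCA6 replicates 2 and 3 combine WT-like scores (0.24 and 0.11) with slopes of 0.060 and 0.12.

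DESeq2, the tool of the study, was run here on all 10 libraries and called 31 of 13104 genes (0.237%), 24 higher and 7 lower in SCA6 84Q/+. The 24 higher genes had a median GC content of 59.8%, against 49.7% for all genes tested, and the 7 lower ones 45.6%. All 31 kept their direction and an unadjusted p under 0.05 by edgeR with the GC offset, and 6 of them lie on chromosome 8. Of the 24 higher genes, 4 are collagens, which were picked out after their values were seen. Col7a1, the anchoring fibril collagen, was at 3.74 to 4.35 CPM in WT and at 6.70, 6.42, 7.47, 6.09 and 4.95 CPM in SCA6 replicates 1 to 5. All SCA6 libraries lay above WT, and the log2 fold change was 0.62 (adjusted p = 1.3e-04 from DESeq2, 0.12 from edgeR) and 0.48 with the GC offset. Col5a1 and Col9a3 had log2 fold changes of 0.45 and 0.41 (adjusted p = 0.0029 and 0.0044 from DESeq2, 0.17 and 0.21 from edgeR), and Col27a1 0.36. These genes also sit in fibroblasts, and the 20 tested markers of meningeal fibroblasts had sums of 990 to 1339 CPM in WT and of 1085 to 1435 CPM in SCA6 84Q/+, with 12 of 20 above 0. Their part in the collagen values was not tested.

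Leng8, a nuclear protein of RNA export, was at 133 to 150 CPM in WT and at 182, 190, 187, 192 and 153 CPM in SCA6 replicates 1 to 5. The lowest SCA6 library, replicate 5, was just above the highest WT library. The log2 fold change was 0.34 (adjusted p = 1.8e-04 from DESeq2, 0.12 from edgeR), and 0.27 with the GC offset. Crocc, the rootletin of the ciliary rootlet, was at 10.7 to 12.1 CPM in WT and at 12.9 to 18.8 CPM in SCA6 84Q/+ (log2 fold change 0.47, and 0.30 with the GC offset). Tle2, a Groucho family corepressor, was at 39.1 to 50.2 CPM in WT and at 50.6 to 65.3 CPM in SCA6 84Q/+ (0.39, and 0.29 with the offset). Ssh3, a cofilin phosphatase, and Arhgef1, an activator of RhoA, differed by 0.33 and 0.32, with no overlap between the genotypes. For comparison, in 265 of 13104 genes (2.02%) all SCA6 libraries lay above all WT libraries, and in 82 (0.626%) all lay below. At 6 months alone the log2 fold changes of Leng8, Crocc, Tle2, Ssh3 and Col7a1 were -0.30, -0.24, -0.32, -0.29 and -0.21. The difference at 3 months minus that at 6 months was called by edgeR in 51 of 13381 genes (0.381%), 49 higher and 2 lower, with a median GC content of 58.4%. Leng8, Crocc and Ssh3 were among them, and Tle2, Col7a1 and Arhgef1 were not (adjusted p = 0.051, 0.087 and 0.055 from edgeR). Without the libraries labelled replicates 2 and 3 no gene was called in this test, and with Y-linked transcripts as a factor 1 was. The difference minus that at 12 months was called in 1 gene (0.00747%), Whrn, and minus that at 19 months in 0 (0%). Spearman's rho of the log2 fold change with GC content, 0.54 at 3 months, was -0.39, -0.37 and -0.17 in fits of 6, 12 and 19 months alone. No comparison of ages was made with the GC offset.

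Of the 7 genes lower by DESeq2, the 6 other than Scoc (Irf7, Oasl2, Irgm1, Gbp3, Casp1 and Casp12) act in innate immunity. Type I interferon raises its target genes, such as Isg15, through the interferon-stimulated response element upstream of them. Of 37 listed genes of the interferon response and glial ageing, 30 were tested and 24 had log2 fold changes below 0. Of the 30, 11 (36.7%) had an unadjusted p under 0.05 and were lower, and 0 were higher, against 878 of 13104 genes lower (6.70%) and 850 higher (6.49%). None of the 30 was called by edgeR. The list's median was -0.10, beside -0.0029 over all genes tested. The 11 were Ifit1, Ifit3, Ifit3b, Ifi27l2a, Ifi44, Oas1a, Oasl2, Isg15, Irf7, Rtp4 and B2m.

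Sequence upstream of 3 such genes is shown because it holds the element, searched as GAAANNGAAA on both strands (RefSeq promoters, GRCm38.p6). The search was added after the values were seen. It matched 9 of 24 tested members with a promoter in the table (37.5%) and 1131 of all 32851 promoters (3.44%), each with 250 bases before the start and 50 after. Capitals mark the matches, which overlap each other, and all 3 stretches end before the start that the RefSeq table uses. GENCODE places the first base of Irgm1 and Gbp3 further upstream, so that the Irgm1 stretch and the end of the Gbp3 stretch lie inside its gene bounds. They are read on the gene's strand, minus at chr4:156200845-156200926 for Isg15, minus at chr11:48871421-48871480 for Irgm1 and plus at chr3:142559969-142560043 for Gbp3, where the match lies on the opposite strand. No match in the Irf7, Oasl2 and Ifi44 windows says only that these letters are not there.
Isg15: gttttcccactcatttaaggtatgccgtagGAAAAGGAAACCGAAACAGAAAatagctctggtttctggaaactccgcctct
Irgm1: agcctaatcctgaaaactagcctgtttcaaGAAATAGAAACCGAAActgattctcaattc
Gbp3: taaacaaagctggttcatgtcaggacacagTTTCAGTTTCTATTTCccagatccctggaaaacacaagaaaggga

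Isg15, a ubiquitin-like modifier, was at 2.07, 2.29, 1.92, 1.82 and 2.48 CPM in WT replicates 1 to 5 and at 1.54, 1.47, 1.80, 1.31 and 1.37 CPM in SCA6 replicates 1 to 5. The groups did not overlap, and the log2 fold change was -0.51 (adjusted p = 0.22 from edgeR, with a standard error of 0.12). Irf7, the transcription factor that amplifies interferon production, was at 2.86, 2.80, 3.08, 3.36 and 4.10 CPM in WT and at 2.35, 2.41, 2.26, 2.41 and 2.15 CPM in SCA6 84Q/+. Again the groups did not overlap, and Irf7 fell by DESeq2's test (adjusted p = 0.022) but not by edgeR's (adjusted p = 0.21), with a log2 fold change of -0.50. Oasl2, an OAS-like protein, was at 4.16, 5.18, 4.18, 4.86 and 5.75 CPM in WT and at 3.77, 3.12, 3.73, 3.596 and 3.31 CPM in SCA6 84Q/+. Its log2 fold change was -0.48 (adjusted p = 0.013 from DESeq2, 0.21 from edgeR), without overlap. Ifi44 was at 1.17 to 1.29 CPM in WT and at 0.66 to 0.95 CPM in SCA6 84Q/+, a log2 fold change of -0.60. In the list, all SCA6 libraries lay below all WT libraries in 4 of 30 genes, beside 0.626% over all genes. The immunity GTPases Irgm1 and Gbp3, which were not in the list, had log2 fold changes of -0.33 and -0.47 (adjusted p = 0.015 and 0.016 from DESeq2, 0.21 and 0.21 from edgeR). Irgm1 was at 10.8 to 14.6 CPM in WT and at 9.64 to 10.5 CPM in SCA6 84Q/+. Gbp3 overlapped, at 6.17 to 9.52 and 5.23 to 6.26 CPM. The inflammatory caspases Casp1 and Casp12 had log2 fold changes of -0.41 and -0.36 (adjusted p = 0.048 and 0.044 from DESeq2, 0.24 and 0.24 from edgeR). The T cell specific GTPase Tgtp2 had the lowest log2 fold change among genes with an unadjusted p under 0.01 and a mean log2 CPM of 1 or more, -0.88, with 1.67 to 4.25 CPM in WT and at 1.10 to 1.85 CPM in SCA6 84Q/+.

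**Figure D4:**
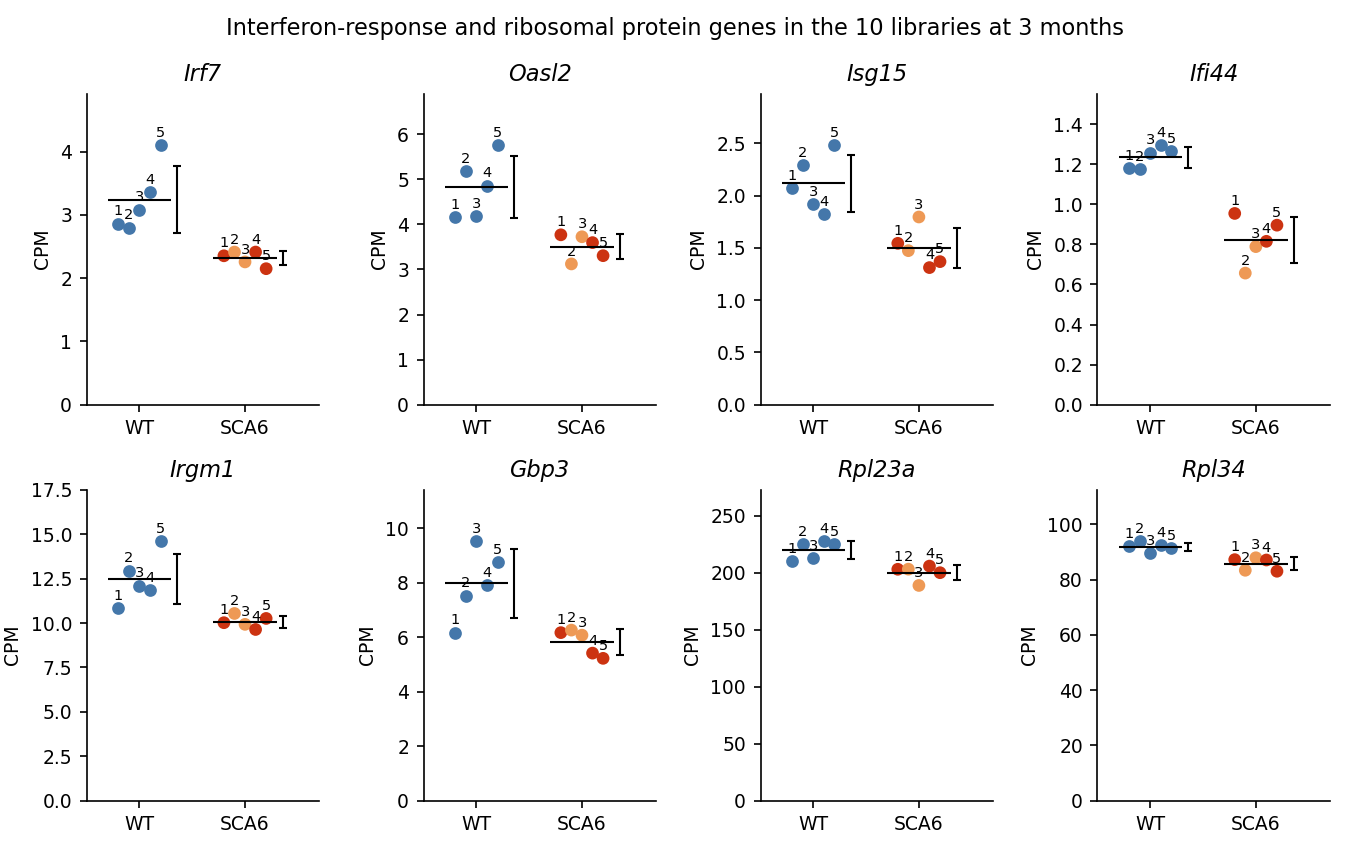
Levels of 6 immunity genes and 2 ribosomal protein genes (CPM, y axes from 0) in each library, numbered by replicate, with the group mean as a line and the SD beside it (n = 5). Blue points are WT, red points SCA6 replicates 1, 4 and 5, and orange points the libraries labelled SCA6 replicates 2 and 3, and in each panel but that of Gbp3 all SCA6 points lie below all WT points, as for Irf7 (2.15 to 2.41 against 2.80 to 4.10 CPM).

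The interferon values did not depend on the libraries labelled replicates 2 and 3 in their direction, with 9 of 30 genes lower and 0 higher at an unadjusted p under 0.05 without them, where all genes gave 2.02% lower and 3.24% higher. With the GC offset 11 were lower and 0 higher, against backgrounds of 603 genes lower (4.60%) and 439 higher (3.35%). With Y-linked transcripts as a factor 14 were lower and 1 higher, where all genes gave 10.6% lower and 9.36% higher, and Oasl2 was called by edgeR (log2 fold change -0.53, adjusted p = 0.046). With the libraries of ID number 34 alone, 5 were lower and 1 higher, where all genes gave 1.60% lower and 3.04% higher. WT libraries were not alike in this list. The mean log2 deviation from the WT mean was 0.12 and 0.21 in WT replicates 2 and 5, which carry Y-linked transcripts, and -0.15, -0.13 and -0.06 in WT replicates 1, 3 and 4. In the SCA6 libraries it was -0.24 to -0.09. Markers of microglia moved with it in WT, at 0.14 and 0.21 in replicates 2 and 5 and -0.16 to -0.07 in the others, while 21 tested members gave 7 above 0 and a median log2 fold change of -0.03, with 1 lower at an unadjusted p under 0.05. With Y-linked transcripts as a factor 6 of 21 were lower and 3 above 0, with a median of -0.08, and in the libraries with these transcripts alone 9 of 21 were lower and 1 above 0, with a median of -0.17, beside -0.27 for the interferon list. Their summed level was 208 to 277 CPM in WT and at 230 to 241 CPM in SCA6 84Q/+, and no listed marker was at 0 in all libraries. The part of microglia in the interferon values was not tested. In fits of each later age alone, Isg15 had log2 fold changes of -0.14, 0.96 and -0.03 at 6, 12 and 19 months (standard errors of 0.17, 0.48 and 0.14). Those of Irf7 were -0.25, 1.18 and -0.18 (standard errors of 0.22, 0.56 and 0.16). The difference at 3 months was not called against that of any later age for these genes.

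Transcripts of the cytosolic ribosome were slightly lower as a group. Of 78 listed ribosomal protein genes, 77 were tested, and 40 (51.9%) had an unadjusted p under 0.05 and were lower. None was higher at this level or called by edgeR, and all genes tested gave 6.70% lower and 6.49% higher. The list's median was -0.10. Rpl23a was at 210, 225, 213, 228 and 225 CPM in WT replicates 1 to 5 and at 203, 203, 189, 206 and 200 CPM in SCA6 replicates 1 to 5. Its ranges did not overlap, with a log2 fold change of -0.16 (adjusted p = 0.21 from edgeR, with a standard error of 0.036). Rpl34 was at 89.4 to 93.8 CPM in WT and at 83.0 to 87.9 CPM in SCA6 84Q/+, a log2 fold change of -0.12. Rps3a1 had a log2 fold change of -0.16 and overlapped. Rpl36, at 0.42, was the highest member. In 3 of 77 genes all SCA6 libraries lay below all WT libraries, beside 0.626% over all genes, and in 0 all lay above. The GC offset left 46 of 77 lower and 0 higher, beside 4.60% of all genes lower. Leaving out the libraries labelled replicates 2 and 3 left 14 of 77 (18.2%, beside 2.02% of all genes) lower, with 68 of 77 below 0 in place of 63 and a median of -0.08. Reads of ribosomal protein genes can be shared with their many pseudogenes, so single values are uncertain. Of 31 proteasome subunits 9 were lower and 0 higher, with a median of -0.04, and 1 was lower without replicates 2 and 3.

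The UPR and ER folding genes did not separate the genotypes at 3 months. Of 67 genes tested, 5 were lower and 2 higher at an unadjusted p under 0.05 (7.46% and 2.99%), none was called by edgeR, and the median was -0.03. Without the libraries labelled replicates 2 and 3 the median was 0.0085, with 1 lower and 2 higher. The study singled out 11 ER chaperones and folding factors from its 6- and 12-month libraries. At 3 months 3 of these 11 were above 0, 1 (Creld2) had an unadjusted p under 0.05, and the median was -0.04, or 0.02 without the 2 libraries. The medians of the 11 at 6, 12 and 19 months were 0.30, -0.26 and 0.16 in the fit of all 40 libraries. That fit includes the libraries the genes were chosen from.

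Upstream sequence of 3 of them is shown, since the ER stress element is what ATF6 and XBP1 read there (RefSeq promoters, GRCm38.p6). The element was searched as CCAAT, 9 bases, CCACG on both strands and matched 6 of the 10 chaperones with a promoter in the table, 8 of 54 UPR and ER folding genes (14.8%) and 39 of all 32851 promoters (0.119%). Capitals mark the matches, and each stretch ends before the start that the RefSeq table uses, while the GENCODE gene bounds take in the Hspa5 stretch and the end of that of Hsp90b1. Each is read on the strand of its gene, plus at chr2:34771995-34772073 for Hspa5, plus at chr15:88819490-88819568 for Creld2 and minus at chr10:86705503-86705686 for Hsp90b1.
Hspa5: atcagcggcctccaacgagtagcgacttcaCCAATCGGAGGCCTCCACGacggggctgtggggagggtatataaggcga
Creld2: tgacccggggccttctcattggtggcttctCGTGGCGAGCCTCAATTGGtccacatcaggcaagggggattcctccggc
Hsp90b1: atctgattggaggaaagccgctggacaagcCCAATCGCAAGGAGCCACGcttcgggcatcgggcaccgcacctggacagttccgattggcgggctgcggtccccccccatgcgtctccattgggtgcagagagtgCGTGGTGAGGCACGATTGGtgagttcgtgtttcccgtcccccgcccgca

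Hspa5, the main ER chaperone (BiP), was at 303, 345, 359, 306 and 294 CPM in WT replicates 1 to 5 and at 270, 251, 332, 337 and 361 CPM in SCA6 replicates 1 to 5. The ranges overlapped widely, with a log2 fold change of -0.07 (adjusted p = 0.79 from edgeR, with a standard error of 0.099). Creld2, an ER disulphide isomerase, was at 13.9 to 15 CPM in WT and at 14.8 to 17.5 CPM in SCA6 84Q/+ (log2 fold change 0.12, adjusted p = 0.37 from edgeR). Hsp90b1, the ER form of HSP90, was at 459 to 501 CPM in WT and at 429 to 519 CPM in SCA6 84Q/+ (-0.03, adjusted p = 0.86 from edgeR). The transcription factor Xbp1 was at 93.3 to 108 CPM in WT and at 81.7 to 111 CPM in SCA6 84Q/+ (-0.11). Gene counts do not show its splicing. Of other ER proteins, Wfs1 was at 26.7 to 28.3 CPM in WT and at 28.6 to 34.6 CPM in SCA6 84Q/+ (0.16), and Ostc, a subunit of oligosaccharyltransferase, had a log2 fold change of -0.15. The ATF4 response, which lies downstream of PERK, had 34 tested genes, 24 above 0, and 3 higher and 1 lower at an unadjusted p under 0.05. The mitochondrial serine enzyme Shmt2 (0.16), the factor Atf5 (0.21) and the alanyl-tRNA synthetase Aars (0.10) were its higher members. With the GC offset none of the 34 had an unadjusted p under 0.05, while the median was 0.02 with and without it. With Y-linked transcripts as a factor 28 were above 0, with 7 higher (20.6%) and 1 lower, where all genes gave 9.36% higher. Without the libraries labelled replicates 2 and 3, 23 were above 0, with 0 higher and 0 lower at this level. Of 42 HSF1 targets and cytosolic chaperones, 2 were higher and 1 lower, with a median of -0.03, and Hsp90aa1 had a log2 fold change of -0.10 (adjusted p = 0.50 from edgeR).

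Ion channels that set Purkinje cell firing were close to WT levels in the fit of genotype alone. Of 31 tested genes 1 (3.23%) was lower at an unadjusted p under 0.05, 0 were higher and none was called by edgeR. All genes tested gave 6.70% lower and 6.49% higher. With Y-linked transcripts as a factor 3 of the 31 were lower and 4 higher (12.9%), where all genes gave 10.6% and 9.36%. In the libraries with these transcripts alone 2 were lower and 4 higher, where all genes gave 4.57% and 4.70%. The lower gene in the fit of genotype alone was Cacnb4, a subunit of calcium channels. It was at 541 to 640 CPM in WT and at 495 to 572 CPM in SCA6 84Q/+ (log2 fold change -0.14, adjusted p = 0.32 from edgeR, and -0.08 without replicates 2 and 3). The T-type channel Cacna1g, the BK channel Kcnma1, the SK channel Kcnn2 and the ER calcium channel Itpr1 had log2 fold changes of 0.02, -0.01, -0.04 and -0.07, each with a standard error between 0.052 and 0.066 and an adjusted p of 0.59 or more from edgeR. The store-operated entry genes Orai2 and Stim1 differed by 0.0048 and 0.03. Orai2 was at 73.4 to 77.4 CPM in WT and at 72.6 to 80.4 CPM in SCA6 84Q/+. Of 40 calcium handling genes 6 were lower and 3 higher, among them the calcium buffer Calb1 at -0.15 and the scaffold Homer1 at -0.23. All genes gave 6.70% lower and 6.49% higher in this fit. The calcium handling counts moved with the fit, as did the shares of all genes. With Y-linked transcripts as a factor 3 were lower and 7 higher, where all genes gave 10.6% and 9.36%. In the libraries with these transcripts alone 0 were lower and 7 higher, where all genes gave 4.57% and 4.70%. Without the libraries labelled replicates 2 and 3, 1 was lower and 0 higher, beside 2.02% and 3.24% of all genes. With the GC offset 3 were lower and 0 higher, beside 4.60% and 3.35% of all genes. Calb1 and Homer1 were at -0.08 and -0.16 with the offset, and at -0.10 and -0.25 with the factor.

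Purkinje cell markers had 13 of 37 genes (35.1%) lower and 1 higher at an unadjusted p under 0.05, with a median of -0.05. All genes tested gave 6.70% lower and 6.49% higher. Without the libraries labelled replicates 2 and 3, 5 of the 37 markers were lower and 0 higher, beside 2.02% and 3.24% of all genes. Their values moved with Y-linked transcripts. The mean log2 deviation was 0.05, 0.10 and 0.02 in WT replicates 1, 3 and 4, which lack Y-linked transcripts, and -0.11 and -0.05 in WT replicates 2 and 5, beside -0.05 to -0.02 in SCA6 84Q/+. With Y-linked transcripts as a factor 6 were lower and 7 higher, where all genes gave 10.6% lower and 9.36% higher. In the libraries with Y-linked transcripts alone 1 was lower and 7 higher, where all genes gave 4.57% lower and 4.70% higher. With the GC offset 5 were lower and 0 higher, beside 4.60% of all genes lower. In that fit 31 of 37 lay below 0 in place of 26, and the median was -0.07. Tmem255a, a membrane protein, was at 84.5 to 93.0 CPM in WT and at 78.2 to 80.9 CPM in SCA6 84Q/+, without overlap (log2 fold change -0.18, adjusted p = 0.12 from edgeR, and 5.6e-04 from DESeq2, under the minimum fold change of a call). It was -0.18 with Y-linked transcripts as a factor and -0.14 with the GC offset. Gng13, a G protein subunit, had a log2 fold change of -0.23 and overlapped.

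With Y-linked transcripts as a factor, 26 of 13104 genes (0.198%) were called by edgeR, 14 higher and 12 lower. Next to Fcho1 and Scoc these included genes whose WT levels followed the Y-linked transcripts. Grm4, the presynaptic glutamate receptor of granule cells, was at 402, 361 and 358 CPM in WT replicates 1, 3 and 4, at 259 and 252 CPM in WT replicates 2 and 5, at 532 CPM in SCA6 replicate 1 and at 310 to 345 CPM in SCA6 replicates 2 to 5. Its log2 fold change was 0.40 (adjusted p = 0.0087 from edgeR) with the factor and 0.16 (adjusted p = 0.69 from edgeR) without it. Gabra3, a GABA receptor subunit, was at 21.1 to 23.04 CPM in WT replicates 1, 3 and 4, at 44.7 and 42.6 CPM in WT replicates 2 and 5, at 17.5 CPM in SCA6 replicate 1 and at 28.5 to 37.5 CPM in the others. The zinc finger factor Tshz2 followed the same order, with 8.09 to 8.84, 22.2 and 21.1, 6.30, and 11.2 to 17.3 CPM. Their log2 fold changes with the factor were -0.44 and -0.60 (adjusted p = 0.034 for both from edgeR). In the libraries with Y-linked transcripts alone, 2 against 4, no gene was called by edgeR, with 1215 at an unadjusted p under 0.05. Grm4 moved to a log2 fold change of 0.03 with the GC offset and no factor, and no gene was called with both. Brainstem and midbrain markers split the same libraries. Their mean log2 deviation was 0.47 and 0.34 in WT replicates 2 and 5, and -0.42, -0.16 and -0.24 in WT replicates 1, 3 and 4. In SCA6 replicate 1 it was -0.49. With the factor 7 of 8 tested members lay below 0, with a median of -0.24. The parts of sex and of tissue content in the values that followed Y-linked transcripts were not tested.

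**Figure D5:**
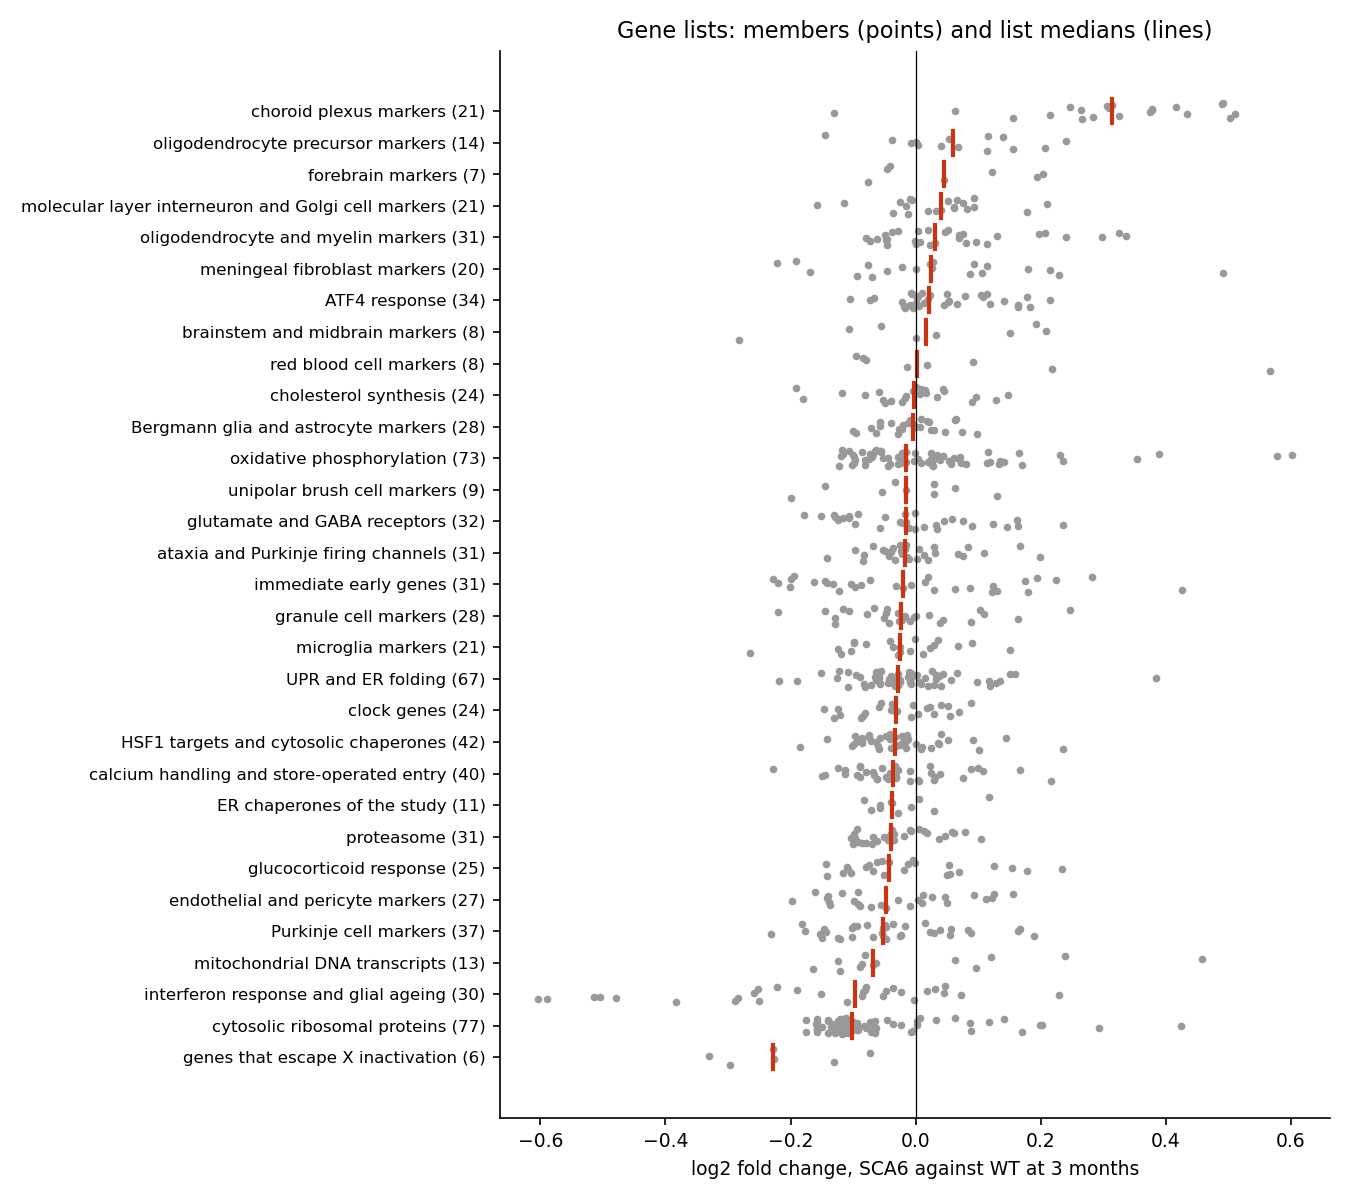
Log2 fold change of SCA6 84Q/+ against WT at 3 months (x axis) of each tested member (grey points) of 31 gene lists (y axis, number of genes tested in brackets), with the list median in red. Medians lie between -0.10 and 0.06 except for choroid plexus markers (0.31) and genes that escape X inactivation (-0.23).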

How the data were processed

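Raw counts per gene were deposited by the authors as a single table for 40 libraries. Per the labels and the design text, 150 bp paired reads were trimmed with Trimmomatic, aligned with STAR to mm10 and counted with HTSeq. Their versions, annotation release and strand setting were not given in the sources used here. Reads of overlapping or antisense genes could therefore be mixed. DESeq2 was the test of the authors. The table holds no comparisons, and no column of other samples was found.

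Genes with a CPM of 1 or more in every library of either genotype were tested. TMM scaling and the quasi-likelihood test of edgeR 4.0.16 (R 4.3.3) were used, with p-values adjusted by Benjamini-Hochberg over all 13104 genes. Calls needed an adjusted p up to 0.05 and a log2 fold change of at least 0.3 in size. CPM are counts scaled to a library's total. Positions, lengths and GC content came from the longest transcript of GENCODE M21 (GRCm38), with GC known for 12452 genes. Genes of the later ages were chosen on the other 30 libraries, and ages were compared by an interaction over 8 groups. List scores are means of log2 CPM (prior count of 1) minus the WT mean. A library was taken to hold Y-linked transcripts at a mean of 10 CPM or more over 4 genes.

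Alternatives were DESeq2 1.42.0, limma 3.58.1 (voom, quality weights), different scalings and low-count filters, Y-linked transcripts or ID number as a factor or a restriction, a replicate block, 1 surrogate variable (sva 3.50.0), all 40 libraries in 1 fit, no minimum fold change, and leaving out libraries. After the data were seen, a GC offset (spline with 4 degrees of freedom per library), the same with the Y factor or without the libraries labelled SCA6 replicates 2 and 3, and a fit without WT replicate 3 and SCA6 replicate 1 were added. The plain edgeR fit of genotype and the fit with the GC offset were tested on simulated data, and the other fits were not.

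Named genes were those called by edgeR or DESeq2, the 10 genes at each end of the log2 fold changes among those with an unadjusted p under 0.01 and a mean log2 CPM of at least 1, up to 10 with the smallest p with the Y factor, up to 4 members per list with an unadjusted p under 0.05, Cacna1a, the later-age genes and genes the study names. Some named genes are not reported here. The genes, lists and rules were chosen with earlier results of these data known. The labels do not say that each library came from a different animal, so p-values measure the spread between these samples.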

Additional observations from a re-analysis of the deposited data

Results flagged for a closer look

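In 10 of 164 groups of 5 values examined, 1 library lay far from the other 4, and chance flags about 1 in 20 groups. WT replicate 3 was low in choroid plexus markers, with a mean log2 deviation of -1.13 from the WT mean against 0.08 to 0.40 in the other WT libraries. SCA6 replicate 1, the only SCA6 library without a full level of Y-linked transcripts, stood apart in Grm4 (532 CPM against 310 to 345 CPM in the other SCA6 libraries), in genes that escape X inactivation (0.035 against -0.33 to -0.22) and in calcium handling genes (0.022 against -0.046 to -0.034). SCA6 replicate 5 was low in Leng8 (153 CPM against 182 to 192 CPM), and SCA6 replicate 2 high in Tmem255a (80.9 CPM against 78.2 to 78.8 CPM). WT replicate 2 was low in Orai2 (73.4 CPM against 76.6 to 77.4 CPM), Stim1 (87.6 CPM against 94.0 to 96.1 CPM) and the catecholamine enzyme Th (7.16 CPM against 8.37 to 8.85 CPM), and high in HSF1 targets and cytosolic chaperones (0.13 against -0.056 to -0.013).

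The genotype difference itself differed between ages for some genes by edgeR's interaction test. At 3 months minus 6 months it was 0.54 for Mri1 (adjusted p = 0.043), and 0.63 for Leng8, 0.71 for Crocc and 0.61 for Ssh3 (adjusted p = 0.032 for each). At 3 months minus 12 months it was 0.60 for Whrn, a scaffold of hair cell stereocilia (adjusted p = 0.036). Once the libraries labelled SCA6 replicates 2 and 3 at 3 months were left out, 0 genes were called in either comparison of ages. Log2 fold changes rose with GC content at 3 months (Spearman's rho 0.54) and fell with it at 6 and 12 months (-0.39 and -0.37). The interaction test took no account of GC content, and its part in these differences was not tested.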

How the results depend on the processing

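The 1 gene called with all 10 libraries, Fcho1, was also the single call with DESeq2 size factors, upper quartile scaling, library totals, no CPM filter, a CPM of 1 in all 10 libraries, limma voom and no minimum fold change, while the fit of all 40 libraries called Comp instead. Without 1 library, 0 to 13 genes were called, 13 of them without SCA6 replicate 5. DESeq2 called 31 genes and 30 without independent filtering, Y-linked transcripts as a factor 26, 1 surrogate variable 8, and leaving out the libraries labelled SCA6 replicates 2 and 3 called 6, or 31 with the Y factor as well. No gene was called (0) with libraries with Y-linked transcripts only, ID number as a factor, ID number 34 only, the GC offset, the GC offset with the Y factor, or without WT replicate 3 and SCA6 replicate 1, and 4 with the GC offset without the libraries labelled replicates 2 and 3. Unadjusted p under 0.05 was reached by 609 to 1859 genes in these fits without a call. The cause of these shifts was not tested. The log2 fold change of Fcho1 was 0.27 to 0.42 over 31 alternatives. Of the 11 chromosome 8 genes of the later ages, 0 were called with all libraries and 3 without the libraries labelled replicates 2 and 3. The interaction with 6 months fell from 51 genes to 0 without these libraries and to 1 with the Y factor, and that with 12 months from 1 to 0 in both. Over the alternatives, 944 list medians moved by less than 1 SD between libraries and 17 by more. The replicate block called 0 genes, with 1567 at an unadjusted p under 0.05. The replicate numbers are no pairs, since deviations of same-numbered libraries correlated at -0.23 to 0.59 and above 0.1 in 1 of 5 pairs. No 2 libraries were alike within sampling noise (lowest chi-square per degree of freedom 9.36 over 45 pairs).

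Sex, ID number, GC slope and genotype were not balanced in these 10 libraries: 4 of 5 SCA6 but 2 of 5 WT libraries held Y-linked transcripts, and no SCA6 library had ID number 35. An adjusted p above the threshold with 5 libraries per group does not show that a gene did not differ.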

Other observations

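Choroid plexus markers had 20 of 21 genes above 0, with a median log2 fold change of 0.31 and 4 genes higher at an unadjusted p under 0.05, among them the coagulation factor F5 (0.51), the carbonic anhydrase Car12 (0.49) and Igfbp2 (0.49). Without WT replicate 3 the median was 0.16, and without the libraries labelled SCA6 replicates 2 and 3 it was 0.32, with 0 genes at an unadjusted p under 0.05. Genes that escape X inactivation had 0 of 6 above 0, with a median of -0.23, which was -0.02 in the libraries with Y-linked transcripts only. Eif2s3x was at 162, 163 and 166 CPM in WT replicates 1, 3 and 4, at 112 and 117 CPM in WT replicates 2 and 5, at 147 CPM in SCA6 replicate 1 and at 105 to 115 CPM in SCA6 replicates 2 to 5.

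Among neuronal groups, 7 of 32 glutamate and GABA receptor genes were lower and 2 higher at an unadjusted p under 0.05. All genes tested gave 6.70% lower and 6.49% higher. With the GC offset 2 of the 32 were lower and 1 higher, beside 4.60% and 3.35% of all genes. With the offset and without the libraries labelled SCA6 replicates 2 and 3, 0 were lower and 0 higher. The NMDA receptor subunit Grin1 had a log2 fold change of 0.15 (0.04 with the GC offset). Of 31 immediate early genes 5 were lower and 1 higher, with a median of -0.02. The list moved with the ID number, at mean log2 deviations of 0.34 and 0.20 in the WT libraries of ID number 34 and -0.28 to -0.11 in those of 35. With ID number 34 alone 26 of 31 lay below 0 with a median of -0.25, and with Y-linked transcripts as a factor the median was 0.09. The prohormone convertase Pcsk1, induced by activity, was at 43.7 to 50.5 CPM in WT and at 38.4 to 43.0 CPM in SCA6 84Q/+, without overlap (-0.20, and -0.14 with the offset). Bdnf had a log2 fold change of -0.20. Of 28 granule cell markers 3 were lower and 1 higher, and the synaptic protein Snap25 was at 3314 to 3549 CPM in WT and at 3186 to 3259 CPM in SCA6 84Q/+ (-0.12). Of 31 oligodendrocyte and myelin markers 21 were above 0 with 0 at an unadjusted p under 0.05. Of 13 transcripts of mitochondrial DNA 3 were lower and 0 higher, led by mt-Nd2 (-0.16, and -0.09 with the offset). Without the libraries labelled SCA6 replicates 2 and 3, the lower genes numbered 3 of 32 receptors, 1 of 31 immediate early genes, 2 of 28 granule cell markers and 1 of 13 mitochondrial transcripts. In the fit of genotype alone with all 10 libraries, edgeR called 0 genes of these lists.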
